A study of Mus musculus with 6 samples.

Results

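The polyamine synthesis and breakdown genes are 10 genes, found by their symbols among the 34714 gene symbols counted in mouse gastrocnemius (Gas) muscle. They are Odc1, Amd1, Srm, Sms, Sat1, Smox, Oaz1, Oaz2, Azin1 and Azin2. Odc1 had the smallest p-value of the whole comparison between miR-92b knockout (M92KO) and wild-type (WT) mice, so the family was chosen by a measured value of the same contrast, the p-value of Odc1. The comparison of Odc1 and its family between the genotypes is therefore given as a description, without a p-value for any of the 10 genes. Calls among them are given only as counts and names beside the share of all genes called, and support nothing, since the choice used the same libraries. The study examined miR-92b, a microRNA, in muscle glycogen and lactate metabolism, and sequenced mRNA from the Gas muscles of 3 WT and 3 M92KO mice with 1 library per mouse. M92KO mice were males of the strain C57BL/6JGpt-Mir-92bem22Cd549/Gpt, in which miR-92b is deleted in the whole body, and the controls were age-matched C57BL/6 males. All 6 mice were 8 weeks old, ate chow and received no treatment. The study's supplementary methods describe an overnight fast before mice were killed and muscle was taken, without naming the sequenced mice. Whether the controls were littermates of the M92KO mice is not given in the sources used here. A global knockout cannot tell an effect inside muscle from one that starts in another organ. In whole muscle, fewer cells of a type and less RNA per cell cannot be told apart.

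Polyamines (putrescine, spermidine and spermine) are small positively charged molecules that bind nucleic acids and are needed for translation and growth. Ornithine decarboxylase (Odc1) makes putrescine, and the aminopropyl groups that turn it into spermidine and then spermine come from S-adenosylmethionine decarboxylated by Amd1. Antizymes (Oaz1, Oaz2) send ornithine decarboxylase to the proteasome, antizyme inhibitors (Azin1, Azin2) bind the antizymes, and Sat1 and Smox convert the higher polyamines back. In skeletal muscle, the pathway is known to follow androgens and to be active when muscle grows.

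The libraries held between 33160508 and 48209846 counts, and each M92KO library was smaller than each WT library. A floor of 3 counts corresponded to 0.0629 to 0.0916 CPM (counts scaled to library size), and floors cover counting error only. The 9 myofibre markers, which define the labelled tissue, were all above this floor and summed to between 112230 and 124865 CPM in the 6 libraries. M92KO mouse 1 stood apart from the other M92KO mice. The chi-square per degree of freedom over genes was 57.4 between M92KO mouse 1 and either of the others, against 10.9 between mice 2 and 3 and 12.8 to 29.6 between pairs of WT mice. By this measure M92KO mouse 1 was nearer to each WT mouse (39.2 to 39.9) than to the other M92KO mice. Distances to WT mice 1, 2 and 3 were 39.9, 42.5 and 70.2 for M92KO mouse 2. They were 33.8, 37.4 and 66.2 for M92KO mouse 3. Mice 2 and 3 were thus also nearer to WT mice 1 and 2 than to M92KO mouse 1, so nearness to WT did not single out mouse 1. Values without M92KO mouse 1 are therefore given beside part of the results. For members where they are not given below, the log2 fold change (M92KO over WT) without that mouse was -0.19 for Srm, 0.25 for Sms and -0.36 for Sat1. It was -0.11 for Oaz1, -0.03 for Oaz2 and 0.05 for Azin2. The targeted miR-92b locus was not analysed here, and libraries of mRNA do not measure a mature microRNA.

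The data showed higher Odc1 CPM in every M92KO mouse than in any WT mouse. CPM of Odc1, scaled with TMM factors, were 91.8, 97.6 and 102.8 in the WT mice and 147.1, 139.9 and 146.7 in the M92KO mice. Its mean was 97.4 ± 5.51 CPM in WT and 144.6 ± 4.04 CPM in M92KO mice (SD, n = 3 each), a 1.48-fold difference. The lowest M92KO value lay above the highest WT value, in the values that chose the gene. The log2 fold change was 0.57 with a standard error (SE) of 0.068, and it stayed between 0.53 and 0.61 when each library was left out in turn. Without M92KO mouse 1 it was 0.56. These fits reuse the values that chose Odc1, so their narrow range adds no support, and a difference chosen this way may be too large. The raw counts of Odc1 were 4242, 3770 and 4908 in WT and 5109, 4582 and 5328 in M92KO mice, so the gene was well covered in each library. Before scaling the genotypes overlapped, with M92KO mouse 2 below WT mouse 3. Odc1 (ENSMUSG00000011179) lies on chromosome 12 at 17544794 to 17551505 of GRCm38, on the plus strand, and no other annotated gene of GENCODE M21 overlaps its exons.

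**Figure D1:**
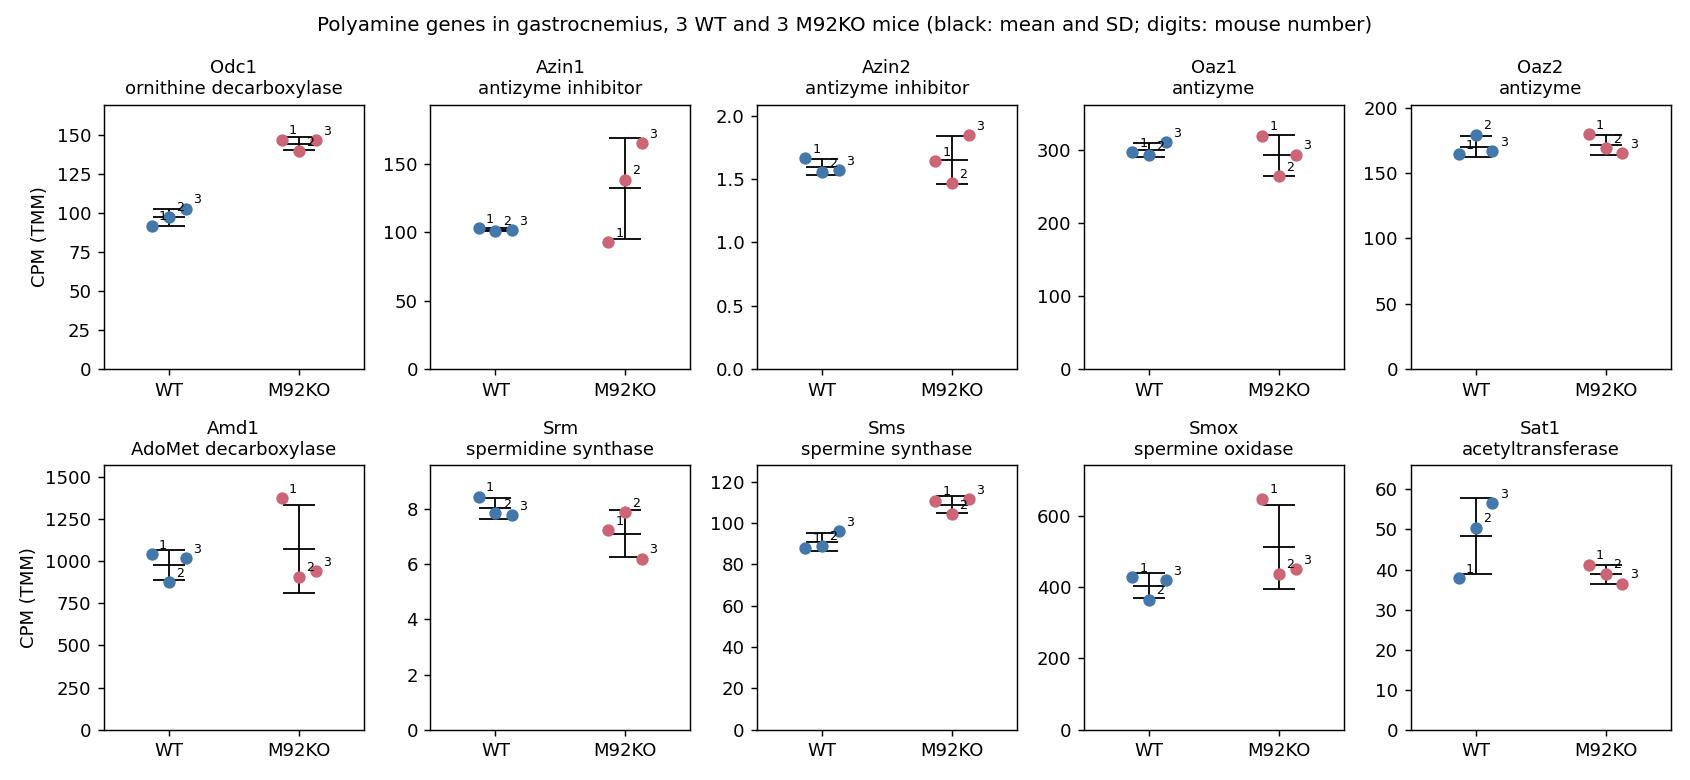
CPM (TMM-scaled, linear axis from 0) of the 10 polyamine genes in 3 WT and 3 M92KO mice, 1 point per mouse with its number, and the mean and SD in black. Odc1, Sms and Smox have all 3 M92KO points above all 3 WT points, while M92KO mouse 1 is apart from mice 2 and 3 in Amd1, Smox and Azin1.

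The antizyme genes, whose products lead ornithine decarboxylase to the proteasome, had overlapping ranges in the genotypes. Oaz1 had 296, 293 and 311 CPM in WT and 319, 263 and 293 CPM in M92KO mice. Its M92KO values lay on both sides of the WT range, with a log2 fold change of -0.04 (SE 0.083). Oaz2 had 164, 179 and 167 CPM in WT and 180, 169 and 165 CPM in M92KO mice, a log2 fold change of 0.01 (SE 0.069). These ranges overlapped almost wholly, and the sign of both small differences turned when single libraries were left out, within -0.11 to 0.03 for Oaz1 and -0.03 to 0.05 for Oaz2. A full-length antizyme is made only when ribosomes shift their reading frame, a step that reads counted per gene do not measure. In the GENCODE M21 models, 3 of 6 protein-coding transcripts of Oaz1 skip 1 base at position 80828295 of chromosome 10, and 2 of 4 of Oaz2 skip 1 base at position 65686272 of chromosome 9. The window of Oaz1 is printed to show where the frame is left, at the stop codon TGA (chr10:80828280-80828309, plus strand, GRCm38). Capitals mark the codon before the stop, the stop codon, whose T is the skipped base, and the base after it.
Oaz1: cctcggtggtgcTCCTGATgtccctcaccc

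The antizyme inhibitor Azin1, an inactive relative of ornithine decarboxylase that binds antizymes in its place, varied among the M92KO mice. It had 102.9, 101.1 and 101.4 CPM in the WT mice and 92.5, 138.4 and 165.1 CPM in the M92KO mice. The WT mice were almost alike (SD 0.999 CPM), whereas M92KO mouse 1 lay below all of them and mice 2 and 3 lay above. The log2 fold change was 0.38 (SE 0.18) over all mice, 0.58 without M92KO mouse 1 and 0.18 without M92KO mouse 3. The exons of Azin1 overlap an antisense gene, Gm49077, and since strandedness of the counting is not given in the sources used here, reads of the pair may not be separable. Azin2, the second inhibitor, was the scarcest gene of the family, with 60 to 77 counts in WT and 48 to 67 counts in M92KO mice. Its means were 1.60 ± 0.061 CPM in WT and 1.65 ± 0.190 CPM in M92KO mice (SD, n = 3 each), and the ranges overlapped.

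Ratios within a library do not depend on how libraries are scaled. The log2 ratio of Odc1 to Oaz1 was -1.69, -1.58 and -1.59 in WT and -1.12, -0.91 and -0.999 in M92KO mice. That of Odc1 to Oaz2 was -0.84, -0.88 and -0.70 in WT and -0.29, -0.27 and -0.17 in M92KO mice. Both ratios were higher in each M92KO mouse than in any WT mouse, by 0.61 and 0.56 log2 units on average. The ratio of Azin1 to Oaz1 overlapped between the genotypes, because M92KO mouse 1 had the lowest value of all and mice 2 and 3 the highest. Since Odc1 is in both ratios of Odc1, they add no evidence of their own on its level.

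**Figure D2:**
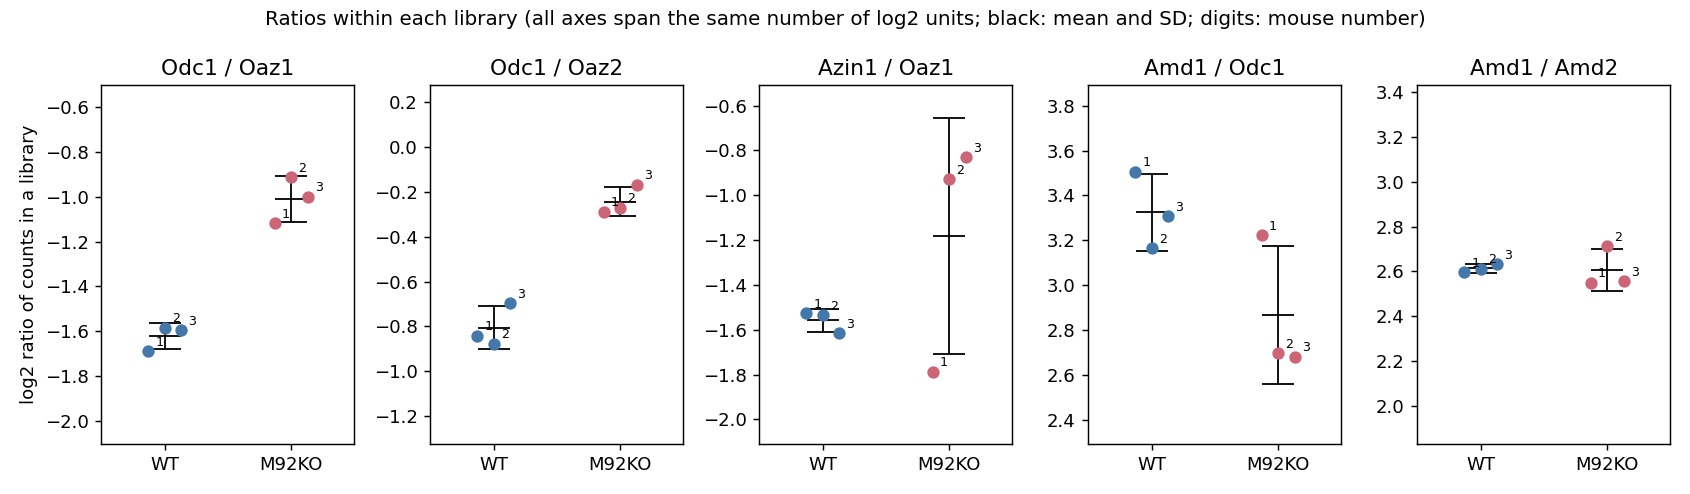
Log2 ratios of the counts of 2 genes in the same library, 1 point per mouse with its number, mean and SD in black, on axes that each span the same number of log2 units. Odc1 over Oaz1 and Odc1 over Oaz2 do not overlap between the genotypes, Azin1 over Oaz1 and Amd1 over Odc1 do, and Amd1 over Amd2 stays near 2.61 in both genotypes.

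Amd1, S-adenosylmethionine decarboxylase, was the most abundant gene of the family and did not separate the genotypes. It had 1043, 875 and 1017 CPM in WT and 1372, 907 and 940 CPM in M92KO mice. M92KO mouse 1 alone was above the WT range, and the log2 fold change of 0.13 (SE 0.16) became -0.08 without that mouse. Amd1 has a near-identical second gene, Amd2, and 7 pseudogenes in RefSeq, so reads may be shared among copies. Amd2 had 173, 143 and 164 CPM in WT and 234, 138 and 160 CPM in M92KO mice, with M92KO mouse 1 again on top. The log2 ratio of Amd1 to Amd2 was 2.61 in both genotypes, with an SD of 0.018 in WT and 0.092 in M92KO mice.

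Of the aminopropyl transferases, spermine synthase (Sms) separated the genotypes and spermidine synthase (Srm) did not. Sms had 87.9, 88.9 and 95.9 CPM in WT and 110.7, 104.3 and 111.5 CPM in M92KO mice. All M92KO values exceeded all WT values, with means of 90.9 ± 4.32 and 109 ± 3.95 CPM (SD, n = 3 each), 1.20-fold apart. The log2 fold change of Sms was 0.26 (SE 0.067) and lay between 0.24 and 0.30 with each library left out. Srm, which makes spermidine, had 8.44, 7.84 and 7.77 CPM in WT and 7.23, 7.88 and 6.20 CPM in M92KO mice. The ranges of Srm overlapped through M92KO mouse 2, and its log2 fold change was -0.18 (SE 0.12).

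The genes of breakdown had differences of opposite sign. Smox, the oxidase that turns spermine back into spermidine, had 428, 365 and 420 CPM in WT and 649, 438 and 451 CPM in M92KO mice. The genotypes did not overlap, but mice 2 and 3 were only just above the WT range and mouse 1 was far above it. Its log2 fold change was 0.34 (SE 0.15), and 0.14 without M92KO mouse 1. Sat1, the acetyltransferase that marks spermidine and spermine for export or oxidation, had 37.9, 50.5 and 56.6 CPM in WT and 41.2, 38.9 and 36.4 CPM in M92KO mice. The M92KO mice lay at the lower end of a wide WT range, 2 of them above WT mouse 1 and 1 below it. The log2 fold change of Sat1 was -0.31 (SE 0.14), from -0.46 without WT mouse 1 to -0.19 without WT mouse 3.

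Across the family, all 10 genes passed the filter on low counts. In edgeR's quasi-likelihood test, 0 of the 10 genes and 0 of all 15788 genes tested (0%) had an adjusted p-value under 0.05. At an unadjusted p-value under 0.05, 4 of the 10 were called, against 1955 of all genes (12.4%). Odc1, Sms and Smox were called as higher, against 5.47% of all genes, and Sat1 as lower, against 6.92%. The steps of the supplementary methods (quantile normalization and limma, without a filter on low counts) called 1244 genes as higher and 1043 as lower of 34714 tested, where edgeR called 863 and 1092 of 15788. The groups did not overlap in Odc1, Sms and Smox, all higher in M92KO mice. Over all genes, 18.4% did not overlap, 8.77% with higher and 9.58% with lower M92KO values. DESeq2 called 312 of 14253 genes with an adjusted value (2.19%), and Odc1 was the 1 gene of the family among them. Without the filter on low counts, edgeR called 6 genes, with Odc1 as the 1 of the family. Without M92KO mouse 1, edgeR called 401 of 16058 genes, among them Odc1 and Azin1. The steps of the supplementary methods called 42 of 34714 genes after adjustment, and 0 of the family were among them. Family calls after adjustment were also 0 with DESeq2's size factors in edgeR, the replicate block and GC and length offsets. They were 0 after thinning, with at least 10 counts in every library, and with any other single library left out. The median log2 fold change of the 10 genes was 0.09, and that of all genes tested was under 0.01 in size in each setting. Since Odc1 set the choice of the family in this contrast, nothing is read from these counts.

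**Figure D3:**
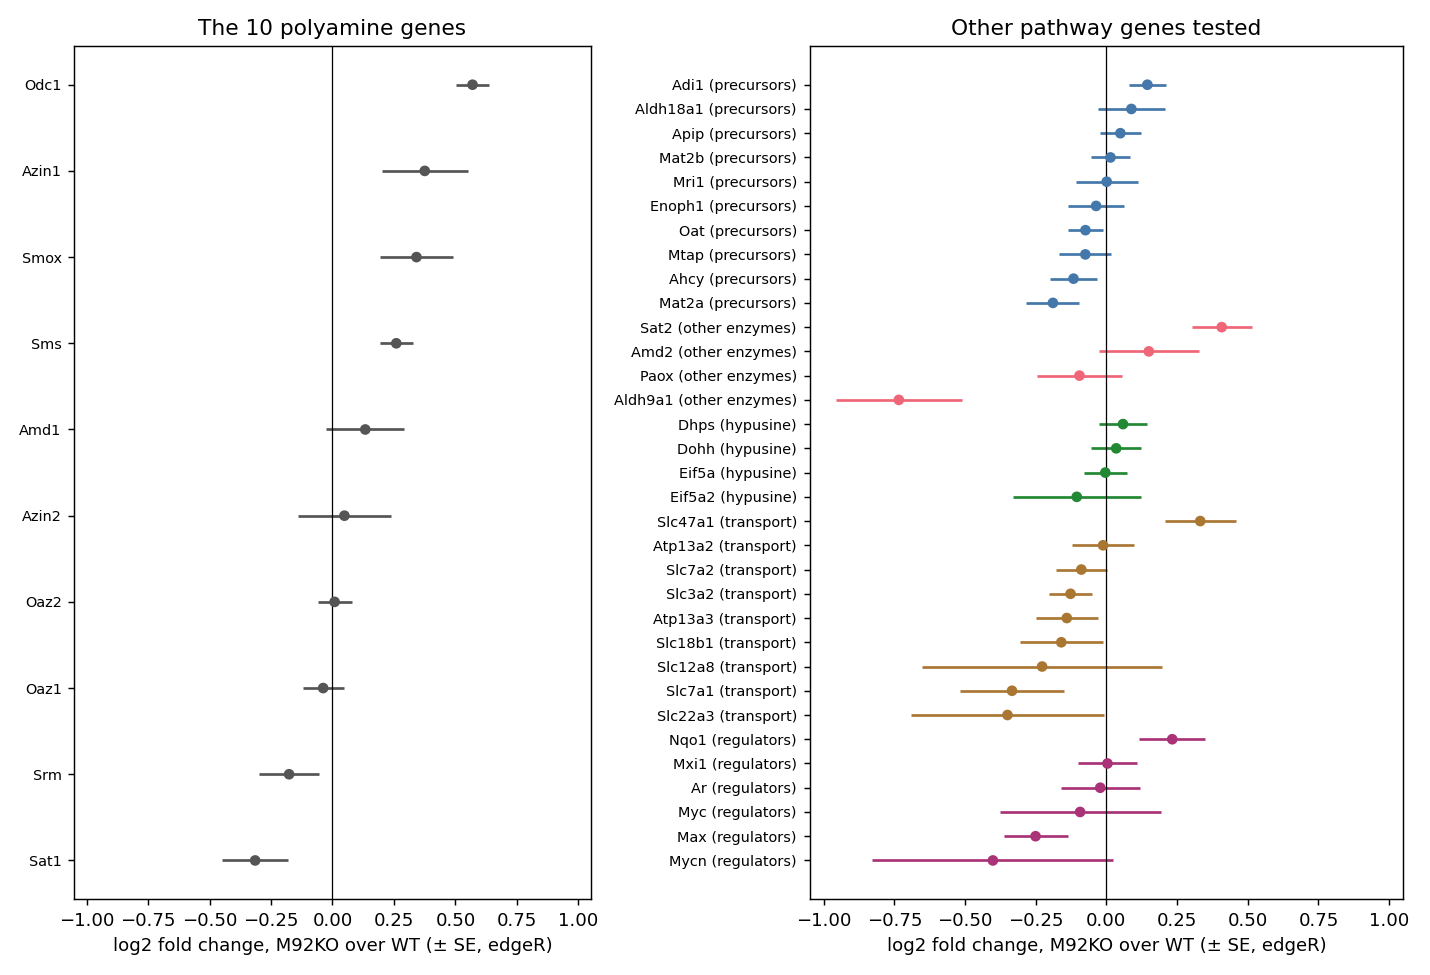
Log2 fold changes (M92KO over WT, edgeR, bars are SE) of the 10 polyamine genes on the left and of 33 other pathway genes on the right, coloured by list. Odc1 is the highest of the 10 at 0.57 and Sat1 the lowest at -0.31, and among the others Sat2 (0.41) and Aldh9a1 (-0.73) lie farthest from 0 upward and downward.

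Levels of different genes were compared as CPM per kilobase of annotated exon. In WT mice, Amd1 (276 ± 25.6) was followed by Oaz1 (117 ± 3.68), Smox (104 ± 8.83) and Oaz2 (56.9 ± 2.67). Odc1 came next with 28.6 ± 1.62, ahead of Sat1 (17.4 ± 3.44), Azin1 (16.3 ± 0.160) and Sms (15.1 ± 0.718). Srm (5.02 ± 0.229) and Azin2 (0.397 ± 0.0151) were the lowest (SD, n = 3 throughout). The top and the bottom of the family were thus 696-fold apart, and of the neighbours in this order Sat1 and Azin1 alone overlapped in WT mice. Both antizyme genes stood above their target Odc1 in either genotype. In M92KO mice the order of Smox and Oaz1 was exchanged, with overlapping ranges, and Sat1 stood behind Azin1 and Sms. Odc1 kept its place at 42.5 ± 1.19 CPM per kilobase.

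**Figure D4:**
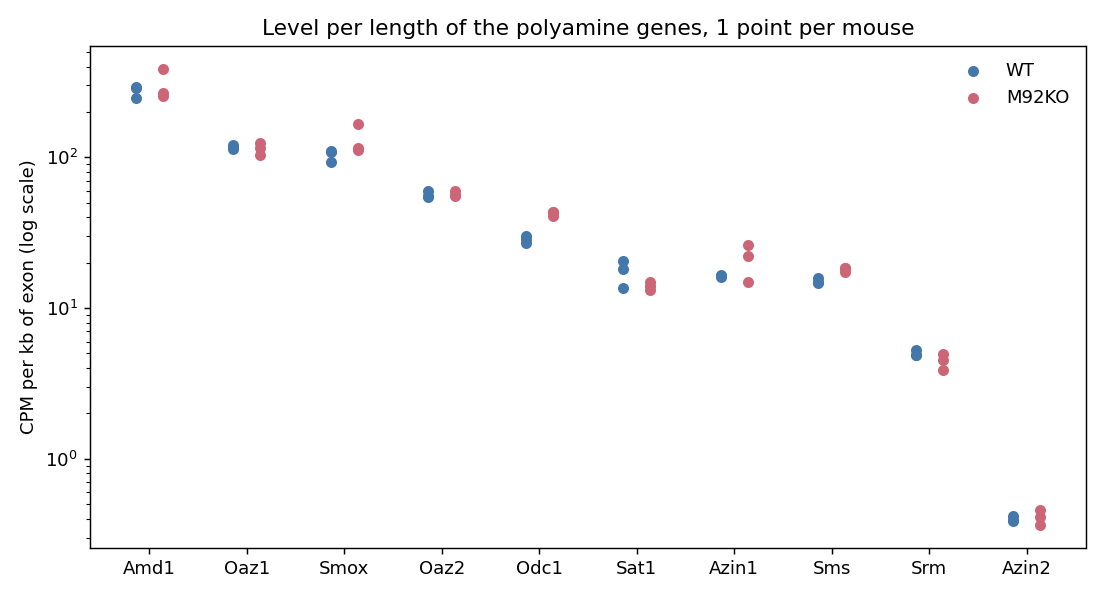
CPM per kilobase of exon (log axis) of the 10 polyamine genes, in the order of the WT means, 1 point per mouse. Amd1 is highest and Azin2 lowest in both genotypes, and Odc1 lies below Oaz1 and Oaz2 in every mouse.

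The other genes of polyamine metabolism were taken from lists of 43 genes, of which 33 were tested. After adjustment edgeR called 0 of them, and DESeq2 called 1, Aldh9a1, where it called 2.19% of all genes. An unadjusted p-value under 0.05 was found for 3 of the 33 (2 higher, 1 lower), a count not above the 12.4% of all genes (5.47% higher, 6.92% lower). Their median log2 fold change was -0.07. The groups did not overlap in 5 genes, with Sat2 and Adi1 (methionine salvage) higher and Oat, Mat2a and Slc3a2 lower in M92KO mice. This count of 5 of 33 is not above the 18.4% of all genes without overlap (8.77% higher, 9.58% lower).

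Among the other enzymes, 4 of 7 were tested. Sat2, a relative of Sat1 with activity on thialysine, had 5.95, 5.49 and 5.87 CPM in WT and 7.77, 7.91 and 7.30 CPM in M92KO mice. Its log2 fold change was 0.41 (SE 0.11, edgeR adjusted p = 0.214). Aldh9a1, an aldehyde dehydrogenase that oxidizes aminoaldehydes from polyamine breakdown, had 15.8, 25.4 and 21.5 CPM in WT and 16.6, 11.4 and 9.67 CPM in M92KO mice. M92KO mouse 1 lay within the WT range, and the log2 fold change of Aldh9a1 was -0.73 (SE 0.22, edgeR adjusted p = 0.258). DESeq2 gave Aldh9a1 an adjusted p of 0.0293. The most abundant gene of this list, Amd2, had a log2 fold change of 0.15 (SE 0.18, edgeR adjusted p = 0.784).

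Of 12 transport genes, 9 were tested, and 1 had an unadjusted p-value under 0.05, against 12.4% of all genes. Slc47a1, an exporter of organic cations, had 81.9, 73.7 and 71.5 CPM in WT and 76.0, 107.0 and 102.7 CPM in M92KO mice, with M92KO mouse 1 inside the WT range. Its log2 fold change was 0.33 (SE 0.13, edgeR adjusted p = 0.352). Without M92KO mouse 1, edgeR's adjusted p was 0.0188 for Slc47a1, at a log2 fold change of 0.47, and 0.0460 for Aldh9a1, at -0.99. That mouse lay inside the WT range in both genes, and the fit without it called 401 of 16058 genes, so nothing is read from these values. With any other single library left out, edgeR's adjusted p was 0.425 to 0.681 for Slc47a1 and 0.207 to 0.630 for Aldh9a1. Slc7a2, a carrier of arginine and ornithine, was the most abundant of the list, with means of 113 CPM in WT and 106 CPM in M92KO mice.

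In the remaining lists no gene reached an unadjusted p-value under 0.05, which 12.4% of all genes did. These were 10 tested precursor genes, which include genes of ornithine and S-adenosylmethionine supply and of methionine salvage. The others were 4 genes of hypusine, the modification that uses spermidine on Eif5a, and 6 regulators of the pathway. The most abundant precursor gene was Mat2a, the enzyme that makes S-adenosylmethionine, with 520 CPM in WT and 456 CPM in M92KO mice and a log2 fold change of -0.19 (SE 0.094, edgeR adjusted p = 0.468). Eif5a stood at 303 CPM in WT and 302 CPM in M92KO mice. Mxi1, which pairs with Max in place of Myc at E-boxes, stood at 59.8 and 59.9 CPM.

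Markers of other cell types were summed in each library to show what else moved with the genotype. The sum of 5 satellite cell markers was 38.4 to 42.9 CPM in WT and 46.8 to 50.6 CPM in M92KO mice. The sum of 7 fibroblast markers was 1756 to 2318 CPM in WT and 1187 to 1637 CPM in M92KO mice. Neither sum overlapped between the genotypes, and in M92KO mice that of satellite cell markers was higher and that of fibroblast markers lower. Among single genes, 18.4% did not overlap. The satellite cell markers went both ways, with log2 fold changes from -0.90 to 0.56, so their sum does not speak for each marker. Those of the fibroblast markers were -0.55 to -0.10. At an unadjusted p-value under 0.05 edgeR called 3 of 5 satellite cell markers (2 higher, 1 lower) and 3 of 7 fibroblast markers (all lower). It called 3 of 5 Schwann cell markers (all lower, median log2 fold change of the list -0.23). Calls were 1 of 5 endothelial and 1 of 4 leukocyte markers tested (both lower), and 1 of 9 myofibre markers (higher). Of the slow fibre, fat cell and red cell markers 0 were called. Over all genes, 12.4% were called (5.47% higher, 6.92% lower). The sum of the Schwann cell markers was 121 to 164 CPM in WT and 121 to 125 CPM in M92KO mice. This sum and those of the slow fibre, fat cell, red cell, endothelial and leukocyte markers overlapped between the genotypes. The median log2 fold change was 0.73 for fat cell markers (6 of 6 tested above 0) and 0.66 for red cell markers (5 of 5). It was -0.26 for slow fibre, -0.14 for endothelial and -0.25 for leukocyte markers. In each list 0 markers were at or under the floor in every library. The part of other cell types in the polyamine values was not tested.

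The microRNA deleted in these mice has a 3p and a 5p arm, and targets are usually read from matches of a 3′ UTR to the seed, bases 2 to 8. The mature sequences are shown because the 3p seed is shared with other mouse microRNAs, which are encoded elsewhere in the genome. They are given 5′ to 3′ from RefSeq (GRCm38.p6) with the seed in capitals, for both arms of miR-92b (chr3:89227126-89227147 and chr3:89227165-89227188, minus strand) and for the 5 other microRNAs of the table with the 3p seed.
miR-92b-3p: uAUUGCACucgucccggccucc
miR-92b-5p: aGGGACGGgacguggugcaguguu
miR-92a-3p: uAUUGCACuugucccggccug
miR-25-3p: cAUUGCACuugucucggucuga
miR-32-5p: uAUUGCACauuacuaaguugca
miR-363-3p: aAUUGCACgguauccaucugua
miR-367-3p: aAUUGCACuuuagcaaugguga

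In the longest annotated 3′ UTR of each gene, Amd1 and Azin1 held a 7mer match to the miR-92b-3p seed. Over 20418 genes with a 3′ UTR of at least 20 bases, 12.9% held a 7mer or 8mer match, and 2 of the 10 polyamine genes did. Matches searched on the transcript strand were GTGCAATA (8mer), GTGCAAT and TGCAATA (7mers) and TGCAAT (6mer), each shorter one being part of the longer. The sites are shown with the match in capitals, in the direction of the transcript, from GRCm38 (Amd1 at chr10:40289171-40289200 and Azin1 at chr15:38489801-38489830, both minus strand).
Amd1: gtgtaatgataGTGCAATcattttgaagtg
Azin1: ccttgtatgatTGCAATAaaactttgtgta

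Neither gene with a 7mer match separated the genotypes over all 6 mice. With M92KO mouse 1 left out, Azin1 was higher in M92KO than in WT mice without overlap, and Amd1 still overlapped. Whether either gene is a target was not tested. Amd1 also held a 6mer for each arm, and Smox held a 6mer of the 5p arm (CGTCCC) but no longer match. Across the genes searched, 24.9% held a 6mer or longer match for the 3p arm, 7.51% held one for the 5p arm, and 4.33% held a 7mer or 8mer for the 5p arm. Odc1, with a 3′ UTR of 333 bases, held none of these matches for either arm, and neither did Srm, Sms, Sat1, Oaz1, Oaz2 or Azin2. The windows searched say nothing about other sites, such as those in coding sequence.

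Promoters were searched for CACGTG, the E-box bound by Myc and Max, which reads the same on both strands. RefSeq windows from 250 bases before to 50 bases after the start were at hand for 7 of the 10 genes, in 8 windows, and Srm, Azin1 and Azin2 were not among them. The motif was present in 1 of the 8 windows and in 7.15% of 32851 windows of all genes. The match belongs to Sms, with its first base at position -196 from the start, and is shown with the motif in capitals (chrX:157492466-157492495, minus strand, GRCm38.p6).
Sms: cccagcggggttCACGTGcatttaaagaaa
The window of Odc1 held no such match, and sites outside these windows, such as those in introns, were not searched. Of the 6 regulators, which include Myc, Mycn, Max and Mxi1, 0 had groups that did not overlap, against 18.4% of all genes. Nothing is read from so short a list.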

How the data were processed

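Gas muscle RNA of 3 WT and 3 M92KO mice was made into libraries with a SMARTer mRNA kit, per the labels. The authors deposited raw counts, the number of reads on each of 34714 gene symbols, in 1 table of 6 libraries. The submitters' processing notes name GRCm38 and mm10. The aligner, counter, annotation and strandedness are not given in the sources used here.

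The analysis used edgeR 4.0.16 in R 4.3.3. filterByExpr (minimum count 10, minimum total 15) left 15788 genes. Libraries were scaled with TMM (factors 0.981 to 1.03), and the genotypes were compared by the quasi-likelihood test (glmQLFit, glmQLFTest) with no covariate and Benjamini-Hochberg adjustment over all genes tested. The study's supplementary methods use quantile normalization, log2 of the value plus 1 and limma. These steps were kept as an alternative, since the values are counts. SDs and p-values cover the spread between mice. The fit was tested on simulated counts.

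The 10 genes, the other pathway lists and the marker lists were chosen with earlier results of these data known. All 10 genes are given in every library. Of the other lists, values are given for genes with an unadjusted p-value under 0.05 and for the most abundant gene of each, and genes named for non-overlap or for comparison with Amd1 were chosen after their values were seen.

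Positions, exon lengths and 3′ UTRs came from GENCODE M21 (25731 symbols matched directly, 419 by synonym, 8564 not), and microRNAs and promoters from RefSeq. Alternatives were DESeq2 1.42.0, its size factors, limma 3.58.1, other filters, the replicate block, GC and length offsets (14749 genes, 93.42% of those tested, lowess span 0.3), thinning to the smallest library, and each library left out. Figures were drawn with matplotlib 3.10.9 in Python 3.11.15. Sequencing reads were not analysed here.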

Additional observations from a re-analysis of the deposited data

How the results depend on the processing

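The number of genes called after adjustment, 0 in edgeR, was 312 with DESeq2, 42 with the steps of the supplementary methods, 6 without the filter on low counts, and 2 with the replicate block, with or without GC and length offsets. Leaving out each library gave 0 to 401, the highest without M92KO mouse 1. At an unadjusted p-value under 0.05, 1955 genes became 1222 to 2984 with a library left out (2984 without M92KO mouse 1). Of the 10 polyamine genes, 4 at that threshold (12.4% of all genes) became 5 with DESeq2 (10.9% of all genes), 5 without the filter (9.5%), 2 with the supplementary methods (6.59%), 3 with the replicate block (10.7%), and 2 to 4 with a library left out (7.65% to 18.6%). Of the other pathway genes, 3 became 2 to 7 with a library left out, the 7 without M92KO mouse 1, where 18.6% of all genes were called. Of 150 alternative fold changes of the 10 genes, 9 had the other sign, in Amd1, Oaz1, Oaz2 and Azin2. Deviations of same-numbered mice correlated at 0.0806, 0.0376 and 0.0151, and those of differently numbered mice at -0.0686 to 0.0365. Each M92KO mouse correlated best with the WT mouse of its number, whereas WT mouse 3 correlated best with M92KO mouse 2. Whether the replicate numbers pair the mice cannot be told from these small values.

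Differences near 0 changed sign. The log2 fold change of Mxi1 (0.00) was -0.00648 with the supplementary methods, -0.00134 without the filter, -0.00511 with the replicate block, -0.0111 with GC and length offsets, -0.0218 with both and -0.00349 after thinning. With a library left out it was -0.0740 to 0.115 for Mxi1, -0.101 to 0.301 for Amd2, -0.0587 to 0.0433 for Eif5a and -0.161 to 0.0101 for Slc7a2. The causes were not tested. Azin2, with 48 to 77 counts, is the one of the 10 polyamine genes whose depth limits precision most.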
